A study of Homo sapiens with 8 samples.

Results

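The comparison is of gene expression in MCF10A, a non-tumorigenic human mammary epithelial cell line, with that in a line the labels call NOTCH1, both kept for 3 days in DMSO, the solvent of the drug used elsewhere in the study. It holds 10347 of the 44658 genes that could be joined between the tables of both lines. A gene entered with 1 symbol, 1 listing per table, a place on chromosomes 1 to 22, X or M, and at least 5 FPKM (fragment counts divided by the length of the transcript and by the size of the library) in either DMSO group. For each of these genes the log2 of the NOTCH1-labelled over the MCF10A-labelled value was taken, and the median over the 7843 genes that reached 5 FPKM in both, −0.04, was subtracted. Both tables were normalized separately, so a ratio says how a gene stood relative to the median gene and not how much RNA of it a cell held.

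The study sequenced total RNA of 8 samples in 4 groups of 2, each line with DMSO and with ginkgolic acid at 30 µM, a compound that blocks the attachment of SUMO to proteins. The NOTCH1-labelled line is described as MCF10A overexpressing the intracellular domain of NOTCH1. The labels give neither the promoter of that construct nor whether the line is 1 clone, and they do not say whether the 2 samples of a group were separate cultures. All groups shared a medium with 5% horse serum, insulin at 10 µg/ml, cholera toxin at 100 ng/ml, epidermal growth factor at 20 ng/ml and hydrocortisone at 500 ng/ml, so the DMSO controls were also under growth factor, hormone and toxin. The tables hold 1 FPKM value per gene and group. The values below therefore carry no replicate error, none of the differences could be tested, and the depth of the libraries is unknown. A size rule took the place of a test. Genes with a centred log2 ratio of 1 or more, 2-fold above the median gene, form the higher set of the NOTCH1-labelled line, and those at −1 or less its lower set.

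Notch receptors are cleaved after they bind a ligand on a neighbouring cell, and the freed intracellular domain enters the nucleus and joins the DNA-binding protein RBPJ to switch on genes such as those of the HES and HEY repressor families. In mammary epithelium the pathway takes part in the choice between basal and luminal fates, and its activation is known in breast cancers. NF-kB and interferon signalling, which several of the genes below report on, drive inflammatory and antiviral programmes that epithelial cells can run without immune cells.

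NOTCH1 itself was at 11.4 FPKM in the MCF10A-labelled and 5.03 FPKM in the NOTCH1-labelled DMSO group, a centred log2 ratio of −1.14 that was −0.91 when centred on housekeeping genes. This goes against the label. The value covers the whole gene (chromosome 9, 139388896 to 139440376, hg19), which holds 1 annotated small RNA, and does not separate the intracellular domain. In the ginkgolic acid libraries of the same lines the order was the other way, with 6.18 FPKM in MCF10A-labelled and 12.4 FPKM in NOTCH1-labelled cells. The line is called NOTCH1-labelled for this reason, and each direction below rests on that label.

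HES1, the repressor that is a direct Notch target, was at 36.6 FPKM in MCF10A-labelled and 45.4 FPKM in NOTCH1-labelled DMSO cells, a centred log2 ratio of 0.35 that is under 2-fold. With ginkgolic acid the values were 179 and 508 FPKM, a centred log2 ratio of 1.11. HES1 lies on chromosome 3 from 193853934 to 193856521 (hg19). Its promoter is shown for matches to TGGGAA, the core letters of the RBPJ motif. Only these letters were searched, and whether RBPJ acts through the marked matches was not tested. The 250 bases before the RefSeq start (GRCh38.p14, chr3:194135898-194136147, plus strand, 5′ to 3′) hold the letters TGGGAA at 84 and at 70 bases before the start, in capitals here.
HES1: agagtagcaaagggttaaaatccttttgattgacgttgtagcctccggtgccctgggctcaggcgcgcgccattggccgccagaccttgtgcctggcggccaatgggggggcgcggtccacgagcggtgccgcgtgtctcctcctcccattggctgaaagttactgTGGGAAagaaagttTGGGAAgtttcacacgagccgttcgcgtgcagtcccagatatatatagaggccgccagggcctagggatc
The letters TGGGAA, searched on both strands, occur in 24.59% of the 22114 RefSeq promoters of 300 bases, so a match is common and only describes the sequence.

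Of the 12 Notch targets with a ratio, 10 were below 0 under DMSO, with HES1 among the others. HES4, a second HES repressor, was at 18.5 FPKM in MCF10A-labelled and 6.78 in NOTCH1-labelled cells, a centred log2 ratio of −1.41. HEY1 was at 0.404 and 2.02 FPKM and NRARP, a feedback inhibitor of the pathway, at 0.548 and 1.00 FPKM, both higher in NOTCH1-labelled cells but under the minimum of 5 FPKM and without a ratio. JAG1, a ligand, was at 13.1 and 6.86 FPKM, MYC at 105 and 69.5 FPKM, and the cyclin gene CCND1 at 13.1 and 11.4 FPKM. Against the median of its chromosome, 20, JAG1 had a centred log2 ratio of −0.25 in place of −0.89. The 12 were part of 27 listed targets. The higher set held 0 of the 12 and the lower set 3 (HES4, CDKN1A and the adhesion receptor gene CD44), against 11.8% and 9.35% of all 9612 genes with a ratio. Against the median of its chromosome, 11, CD44 had −0.65 in place of −1.02, inside 2-fold. HES4 and CDKN1A had −1.49 and −1.78 against the medians of theirs. The list had a median of −0.45, which was −0.20 when each gene was set against genes of like GC content, and 0.02 was the median over all 9612 genes.

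CDKN1A, which encodes the cell cycle inhibitor p21, was at 34.6 FPKM in MCF10A-labelled and 10.4 FPKM in NOTCH1-labelled DMSO cells (centred log2 ratio −1.69). Among 34 receptors, ligands and modulators, 21 reached the minimum. The higher set held 0 and the lower set 2 of these, against 11.8% and 9.35% of all genes. The 2 were NOTCH1 and RFNG, a sugar transferase that modifies Notch receptors, at 7.47 and 3.17 FPKM. Members of the core machinery were less than 2-fold apart. RBPJ was at 39.3 and 45.2 FPKM, the receptor gene NOTCH2 at 6.42 and 6.51 FPKM, and ADAM10, which makes the first cleavage, at 121 and 139 FPKM. PSENEN, a subunit of the gamma-secretase that makes the next cleavage, was at 24.6 and 12.8 FPKM (−0.91). It lies on chromosome 19, and against the median of that chromosome its centred log2 ratio was −0.06. These 4 genes were chosen after their values were seen. With ginkgolic acid the target list had a median of 0.69, with 4 of 12 in the higher set and 1 in the lower set. Of all genes with ginkgolic acid, 8.99% and 9.42% were in these sets.

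Both lines carried the markers of mammary epithelium. Of 7 basal markers, 5 were in the joined table and all 5 were above 5 FPKM in both DMSO groups, with a sum of 452 FPKM in MCF10A-labelled and 446 in NOTCH1-labelled cells. KRT5 and KRT17 were not among the joined genes. Of 8 luminal markers, 3 reached 5 FPKM in each group, and the 8 summed to 233 and 290 FPKM. Markers of other cell types were mostly low. The 14 fibroblast and stromal markers summed to 103 and 114 FPKM with 0 of 14 at 0, and DCN alone gave 18.05 and 63.4 FPKM. The 10 endothelial markers summed to 16.3 and 11.2 FPKM, the 16 immune markers to 22.2 and 21.4 FPKM (4 and 1 of them at 0) and the 14 neuronal and glial markers to 27.3 and 38.9 FPKM. In such bulk samples, fewer cells of a kind and less RNA of a gene per cell cannot be told apart.

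Across all 9612 genes with a ratio, the higher set held 1132 (11.8%) and the lower set 899 (9.35%), and 7581 lay between, so that 21.1% were beyond 2-fold in either direction. The quartiles of the centred log2 ratio were −0.47 and 0.48. Of the higher set 347 genes, and of the lower set 154, were 4-fold or more from the median gene. The minimum fell between SKA3, at 4.998 and 3.82 FPKM and left out, and ZNF214, at 5.001 and 3.95 FPKM and kept. The remaining 735 genes were listed at 0 in 1 group, 513 of them in MCF10A-labelled and 222 in NOTCH1-labelled cells. Only 7 and 1 of these were protein-coding, and a listed 0 can be a failed estimate, so they have no ratio.

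**Figure D1:**
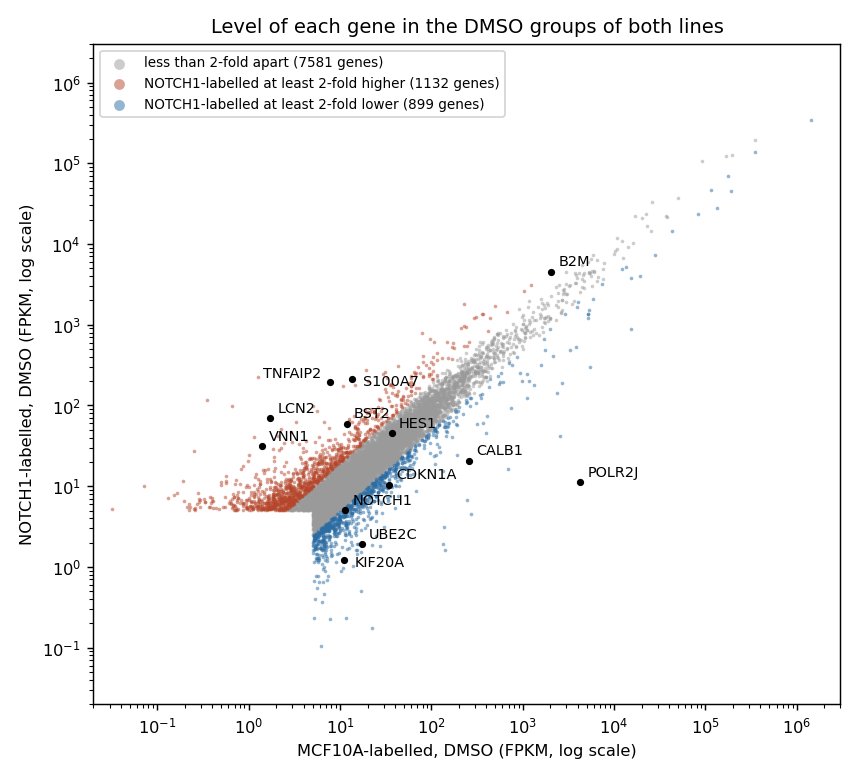
FPKM of each of the 9612 genes with a ratio in the MCF10A-labelled (x axis) and the NOTCH1-labelled (y axis) DMSO group, both on a log scale, 1 point per gene, coloured by the 2-fold rule on the centred log2 ratio. LCN2 lies far above the main band at 1.73 and 69.2 FPKM, POLR2J far below it at 4259 and 11.3 FPKM, and HES1 inside it.

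Gene types differed in their shares. Of 7709 protein-coding genes, 563 were higher (7.3%) and 676 lower (8.77%), with a median of −0.01. Of 179 long non-coding and other genes, 80 were higher (44.7%) and 15 lower (8.38%), with a median of 0.74 that was −0.51 in the ginkgolic acid libraries. The 190 pseudogenes had 59 higher (31.1%) and 28 lower (14.7%), and the 136 small RNAs 17 higher (12.5%) and 38 lower (27.9%). A further 1398 genes were not matched to a type by symbol. Of these 413 were higher (29.5%) and 142 lower (10.2%), with a median of 0.21. Over all 9612 genes the shares were 11.8% and 9.35%. The most extreme values among genes that hold annotated small RNAs are uncertain, since reads of the small RNA may count for the host. DNAJC12, which holds 2, was at 2.93 FPKM in MCF10A-labelled and 46.3 FPKM in NOTCH1-labelled cells, and UBAP2, which also holds 2, at 2539 and 41.3 FPKM. With ginkgolic acid UBAP2 was at 29.6 and 337 FPKM, the reverse order.

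Among protein-coding genes that hold no small RNA, those with the highest ratios included several of innate defence and inflammation. LCN2, which encodes the iron-siderophore-binding protein lipocalin 2 (chromosome 9, 130911350 to 130915734, hg19), was at 1.73 FPKM in MCF10A-labelled and 69.2 FPKM in NOTCH1-labelled DMSO cells, a centred log2 ratio of 5.36. In the other libraries of the same lines, with ginkgolic acid, the gene stood at 1.26 and 72.5 FPKM, a ratio of 5.44. LCN2 is a known NF-kB target, and its promoter is shown for the match to that factor's consensus. The 250 bases before its start (GRCh38.p14, chr9:128149203-128149452, plus strand, 5′ to 3′) hold 1 match, in capitals and read on the minus strand, that begins 175 bases before the start.
LCN2: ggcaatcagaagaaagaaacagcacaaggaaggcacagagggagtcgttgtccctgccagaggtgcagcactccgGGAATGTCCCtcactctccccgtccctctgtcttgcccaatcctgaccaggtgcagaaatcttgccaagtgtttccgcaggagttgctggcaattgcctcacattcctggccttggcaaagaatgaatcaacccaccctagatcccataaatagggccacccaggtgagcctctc
The NF-kB consensus, on both strands, occurs in 5.567% of the 22114 promoters.

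TNFAIP2, a gene induced by tumour necrosis factor (chromosome 14, 103589779 to 103603776), was at 7.76 FPKM in MCF10A-labelled and 197 FPKM in NOTCH1-labelled DMSO cells, a centred log2 ratio of 4.71. VNN1, a surface pantetheinase (chromosome 6, 133002729 to 133035188), was at 1.39 and 31.5 FPKM (4.54). S100A7, the antimicrobial protein psoriasin (chromosome 1, 153430220 to 153433177), was at 13.5 and 214 FPKM (4.03). Its near-identical copy S100A7A could share reads with it, so its level is uncertain. These 3 genes were also higher in NOTCH1-labelled cells with ginkgolic acid, at centred log2 ratios of 2.76, 3.37 and 8.18.

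The others of the 12 highest were of mixed kinds. SLC9A3R1, the scaffold protein NHERF1 (chromosome 17, 72666717 to 72765492), was at 10.9 FPKM in MCF10A-labelled and 174 FPKM in NOTCH1-labelled DMSO cells but at 85.7 and 6.87 FPKM with ginkgolic acid, so its order turned. CTSS, a lysosomal protease that trims the invariant chain in antigen presentation, was at 3.01 and 35.6 FPKM under DMSO. WNT4, a secreted signal that acts in mammary branching, was at 1.35 and 11.7 FPKM. TGM4 was at 1.21 and 14.2 FPKM, NDUFA4L2 at 3.97 and 29.5 FPKM, COL16A1, a collagen chain, at 1.71 and 12.4 FPKM, ITGA4, an integrin subunit, at 2.43 and 17.6 FPKM and HNMT, which methylates histamine, at 1.14 and 7.93 FPKM. Except for SLC9A3R1, each of these had a low MCF10A-labelled value, between 1 and 4 FPKM, where FPKM rest on fewer fragments than at high levels. NDUFA4L2 also turned its order with ginkgolic acid, at 2.47 and 0.744 FPKM. CTSS, WNT4, TGM4, COL16A1, ITGA4 and HNMT kept theirs.

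Among protein-coding genes without small RNAs, the lowest ratio was that of POLR2J, a subunit of RNA polymerase II with near-identical copies (chromosome 7, 102105376 to 102119380), at 4259 FPKM in MCF10A-labelled and 11.3 FPKM in NOTCH1-labelled DMSO cells, a centred log2 ratio of −8.52. SPAG8 followed at 141 and 1.63 FPKM (−6.40) and the nuclear protein gene AKIRIN2 at 270 and 4.53 FPKM (−5.86). POLR2J and AKIRIN2 had the same order with ginkgolic acid, at 9547 and 18.2 FPKM and at 10315 and 20.1 FPKM, whereas SPAG8 was at 0.855 and 2.03 FPKM there. Between treatments the MCF10A-labelled level went from 270 to 10315 FPKM for AKIRIN2 and from 141 to 0.855 FPKM for SPAG8. Small RNAs were sought within the annotated gene, while a locus can span more. The values of these 3 genes are therefore uncertain too. CALB1, the calcium buffer calbindin (chromosome 8, 91070787 to 91107788), was at 259 and 20.6 FPKM under DMSO (−3.61) and at 58.6 and 12.1 FPKM with ginkgolic acid (−2.67). Also among the 12 lowest were PSKH1 (13.8 and 1.02 FPKM), the potassium channel gene KCNK15 (22.5 and 1.87), the metallothionein gene MT1F (17.0 and 1.55), IGFL1 (14.9 and 1.63) and the RNA-binding protein gene KHDRBS3 (15.8 and 1.95). The remaining 3, PBK, KIF20A and UBE2C, are genes of mitosis described below. With ginkgolic acid PSKH1 (0.359 and 2.69 FPKM), KCNK15 (1.67 and 2.84) and IGFL1 (0.0859 and 0.678) had the reverse order. So did PBK, KIF20A and UBE2C. MT1F (12.4 and 6.47) and KHDRBS3 (17.4 and 10.3) kept theirs.

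**Figure D2:**
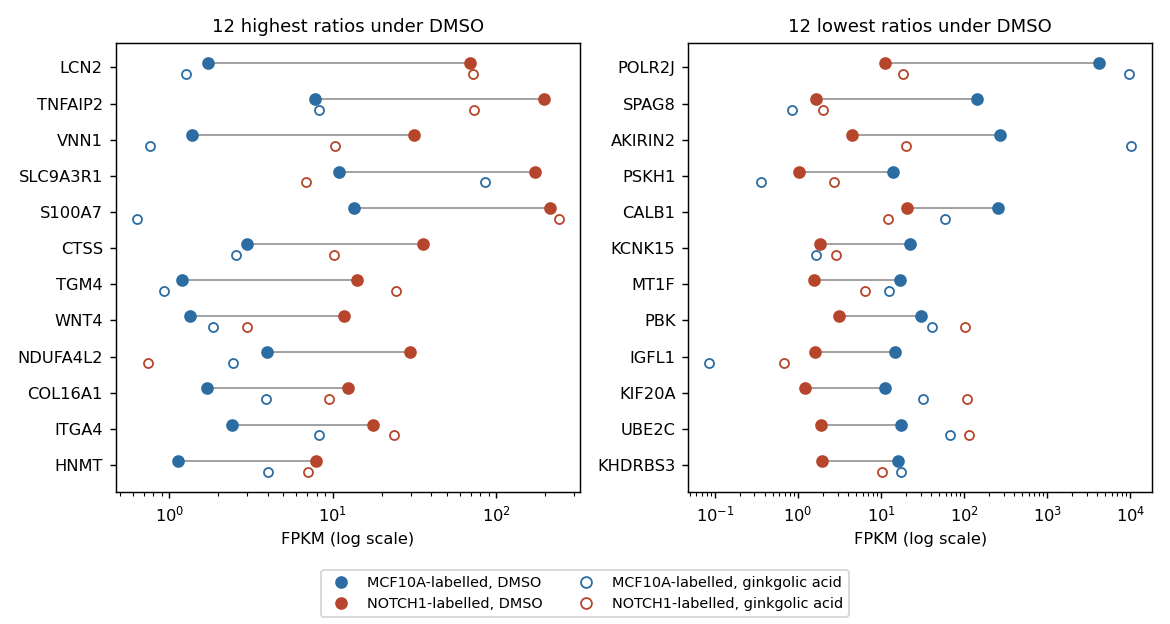
FPKM on a log scale (x axis) of the 12 highest and 12 lowest protein-coding genes by centred log2 ratio under DMSO. Genes that hold small RNAs are left out. Each line is shown with DMSO (filled) and with ginkgolic acid (open). LCN2 keeps a wide gap in both treatments (69.2 and 1.73 FPKM, then 72.5 and 1.26 FPKM). With ginkgolic acid SLC9A3R1 and NDUFA4L2 among the highest turn their order. Among the lowest, SPAG8, PSKH1, KCNK15, PBK, IGFL1, KIF20A and UBE2C do so.

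NF-kB targets, chemokines and cytokines were mostly higher in NOTCH1-labelled cells. Of 45 listed, 21 reached the minimum, 10 were in the higher set and 0 in the lower set, against 11.8% and 9.35% of all genes. The median was 0.74, and 1.05 over the 19 members that could be set against genes of like GC content. With a minimum of 5 FPKM in both groups it was 0.65 over 18 members. IL8, a chemokine that attracts neutrophils (chromosome 4, 74606223 to 74609433), was at 1.16 FPKM in MCF10A-labelled and 6.54 FPKM in NOTCH1-labelled cells (2.54). IL32, a cytokine that holds 1 small RNA, was at 7.68 and 37.6 FPKM (2.33), and TNFSF10, the death ligand TRAIL (chromosome 3, 172223298 to 172241297), at 27.4 and 118 FPKM (2.14).

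Further members, chosen after their values were seen, had higher levels as well. The chemokine gene CCL20 was at 12.7 and 47.2 FPKM, CXCL1 at 10.3 and 28.4 FPKM, and the cytokine gene IL1B at 2.81 and 6.82 FPKM. The pathway's own feedback genes differed less. TNFAIP3, the deubiquitinase A20, was at 18.7 and 38.8 FPKM, BIRC3 at 168 and 373 FPKM and the inhibitor gene NFKBIA at 253 and 281 FPKM. RELB, an NF-kB subunit, was at 10.00 and 6.37 FPKM (−0.61) and the cytokine gene IL18 at 361 and 230 FPKM (−0.61), so that not every member stood higher. In the ginkgolic acid libraries the list had a median of 0.85, with 7 of 20 in the higher set and 0 in the lower set. Of all genes there, 8.99% and 9.42% were in these sets.

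Acute phase and epithelial defence genes had a median of 1.03 over 11 genes. Of these, 6 were in the higher set and 1 in the lower set, against 11.8% and 9.35% of all genes. With a minimum of 5 FPKM in both groups, 6 genes were left and the median was −0.46, so the sign rests on genes that were low in MCF10A-labelled cells. The milk protein gene LTF was at 8.10 FPKM in MCF10A-labelled and 28.1 FPKM in NOTCH1-labelled cells (1.83) and the defensin gene DEFB1 at 1.76 and 5.39 FPKM (1.66). PI3, the elastase inhibitor elafin, was the member of the lower set, at 91.5 and 40.6 FPKM (−1.13). The 2 most abundant members were lower without reaching 2-fold. SAA1, serum amyloid A, which holds 1 small RNA, was at 4271 and 2547 FPKM and the protease inhibitor gene SLPI at 1286 and 739 FPKM, these 3 chosen after their values were seen. PI3 and SLPI lie on chromosome 20, and against the median of that chromosome their centred log2 ratios were −0.48 and −0.11.

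Antigen presentation genes were also higher. Of 9 measured members of the class I list, 5 were in the higher set and 0 in the lower set, with a median of 1.15. Of all genes, 11.8% and 9.35% were in these sets. B2M, the light chain shared by all class I molecules (chromosome 15, 45003675 to 45011075), was at 2049 FPKM in MCF10A-labelled and 4518 FPKM in NOTCH1-labelled cells (1.18). NLRC5, the transactivator of class I genes, was at 3.68 and 10.7 FPKM (1.58), the immunoproteasome subunit gene PSMB9 at 10.8 and 30.5 FPKM (1.54) and ERAP2, a peptide-trimming protease, at 5.45 and 12.3 FPKM (1.22). The heavy chain genes are listed several times because of alternative haplotypes, where all their values are 0, and so fall outside the join. Their main entries were read after the other values were seen, and their near-identical sequences make them uncertain. HLA-B was at 13.2 and 140 FPKM, HLA-C at 67.9 and 89.1 FPKM and HLA-E at 135 and 115 FPKM. With ginkgolic acid the joined list had a median of −0.04 and 1 of 9 in the higher set, against 8.99% of all genes there. HLA-B (22.99 and 192 FPKM) and B2M (1538 and 3932 FPKM) still had the same order as under DMSO.

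Type I interferon-stimulated genes were mixed. Of 40 listed, 21 reached the minimum, with a median of 0.47. The higher set held 6 of them and the lower set 3, against 11.8% and 9.35% of all genes. BST2, the antiviral membrane protein tetherin (chromosome 19, 17513748 to 17516457, hg19), was at 11.8 FPKM in MCF10A-labelled and 59.6 FPKM in NOTCH1-labelled DMSO cells (2.38), and at 1.28 and 64.4 FPKM with ginkgolic acid (5.25). XAF1, a proapoptotic gene, was at 2.77 and 9.60 FPKM (1.83) and OAS3, a sensor of double-stranded RNA, at 2.99 and 8.72 FPKM (1.58). IFITM3, which restricts virus entry and has close paralogs, was lower, at 141 and 54.8 FPKM (−1.32). STAT2, a factor of the interferon response that holds 1 small RNA, was at 21.2 and 9.72 FPKM (−1.09), chosen after its values were seen. The BST2 promoter is shown for its interferon-stimulated response element. The 250 bases before its start (GRCh38.p14, chr19:17405631-17405880, minus strand, 5′ to 3′) hold its core (TTTC, any 2 bases, then TTTC again) on the opposite strand in overlapping matches that begin 130 and 124 bases before the start, in capitals.
BST2: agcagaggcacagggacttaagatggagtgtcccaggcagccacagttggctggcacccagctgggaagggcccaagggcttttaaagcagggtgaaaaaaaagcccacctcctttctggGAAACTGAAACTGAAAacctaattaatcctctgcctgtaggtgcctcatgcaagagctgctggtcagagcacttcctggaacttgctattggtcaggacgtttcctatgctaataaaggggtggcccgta
This core, on both strands, occurs in 3.812% of the 22114 promoters.

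Genes of G2 phase and mitosis were lower in NOTCH1-labelled cells under DMSO. Of 28 measured members, 0 were in the higher set and 12 in the lower set, against 9.35% of all genes, and 25 of 28 were below 0. The median was −0.55, and −0.65 when set against genes of like GC content. With a minimum of 5 FPKM in both groups, 18 members were left and the median was −0.28. The size of the difference therefore depends on members that were low in 1 group. KIF20A, a kinesin of cytokinesis (chromosome 5, 137475455 to 137549032), was at 11.03 FPKM in MCF10A-labelled and 1.21 FPKM in NOTCH1-labelled cells (−3.14). UBE2C, the ubiquitin-conjugating enzyme of the anaphase-promoting complex (chromosome 20, 44441215 to 44445596), was at 17.2 and 1.90 FPKM (−3.14), and the mitotic kinase gene PBK, not on the list, at 30.4 and 3.09 FPKM (−3.26).

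DLGAP5, a spindle protein (chromosome 14, 55614830 to 55658396), was at 6.78 FPKM in MCF10A-labelled and 1.21 FPKM in NOTCH1-labelled cells (−2.44), and TOP2A, the topoisomerase of dividing cells, which holds 1 small RNA, at 25.01 and 4.95 FPKM (−2.29). CDK1, the kinase of mitotic entry, was at 64.9 and 19.8 FPKM (−1.67) and its partner cyclin gene CCNB1 at 41.4 and 17.2 FPKM (−1.22), both chosen after their values were seen. CKAP2, a spindle-associated protein also chosen so, was at 17.4 and 22.6 FPKM (0.42), so not every member was lower. In the ginkgolic acid libraries the direction was the reverse. There the 28 members had a median of 0.97, with 13 in the higher set and 0 in the lower set. Of all genes with ginkgolic acid, 8.99% and 9.42% were in these sets. CDK1 was at 191 and 521 FPKM, KIF20A at 32.2 and 109 FPKM and DLGAP5 at 30.8 and 98.6 FPKM. The promoter of DLGAP5 is shown for the cell cycle genes homology region, the element bound by the complexes that repress such genes outside mitosis. The 250 bases before its start (GRCh38.p14, chr14:55191586-55191835, minus strand, 5′ to 3′) hold the letters TTTGAA at 138 bases and, on the opposite strand, at 109 bases before the start, in capitals.
DLGAP5: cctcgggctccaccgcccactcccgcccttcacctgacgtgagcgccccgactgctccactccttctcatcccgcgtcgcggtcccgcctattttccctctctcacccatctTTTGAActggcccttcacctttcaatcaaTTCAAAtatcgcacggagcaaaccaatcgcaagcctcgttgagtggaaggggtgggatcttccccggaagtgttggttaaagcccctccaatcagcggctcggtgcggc
These letters, on both strands, occur in 16.02% of the 22114 promoters. Of the 9612 genes only 4396 (45.7%) matched a promoter, so no share of any motif is given for the higher or lower genes.

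Replication-dependent histone genes, which are transcribed in S phase, had the lowest median of the lists with at least 7 measured genes. Of 43 measured, 0 were in the higher set and 22 in the lower set, against 11.8% and 9.35% of all genes. The median was −1.04 (−0.88 when set against genes of like GC content, and −0.84 over the 32 with 5 FPKM in both groups). HIST1H1B, a linker histone (chromosome 6, 27834570 to 27835359), was at 28.5 FPKM in MCF10A-labelled and 4.71 FPKM in NOTCH1-labelled cells (−2.55). HIST1H3B was at 19.5 and 3.31 FPKM, HIST1H2BO at 17.1 and 2.88 FPKM and HIST1H3F at 5.22 and 0.234 FPKM. These genes are short and near-identical to one another, so single values are uncertain. The list had a median of 0.04 with ginkgolic acid.

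Of 23 measured genes of S phase and DNA replication, 1 was in the higher set and 3 in the lower set, against 11.8% and 9.35% of all genes, with a median of −0.27. CDC45, a helicase factor, was at 6.97 FPKM in MCF10A-labelled and 1.38 FPKM in NOTCH1-labelled cells (−2.29), and GINS3, its partner, which holds 2 small RNAs, at 3.62 and 11.6 FPKM (1.72). Cyclins and inhibitors of G1 had 0 of 16 in the higher set and 5 in the lower set, beside the same 11.8% and 9.35%. Their median was −0.50, and −0.31 when set against genes of like GC content. With ginkgolic acid it was 0.37. The kinase gene CDK2 was at 13.5 and 4.66 FPKM, the cyclin gene CCNE2 at 10.7 and 2.91 FPKM and the phosphatase gene CDKN3 at 11.6 and 2.51 FPKM. CDK2, CCNE2 and CDKN3 reached the minimum of 5 FPKM only in MCF10A-labelled cells, so they entered through the group where they were high. This list held promoters and inhibitors of the cycle alike. CDKN2A was listed at 0 in all 4 groups, and so was its neighbour CDKN2B, read after the other values were seen.

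**Figure D3:**
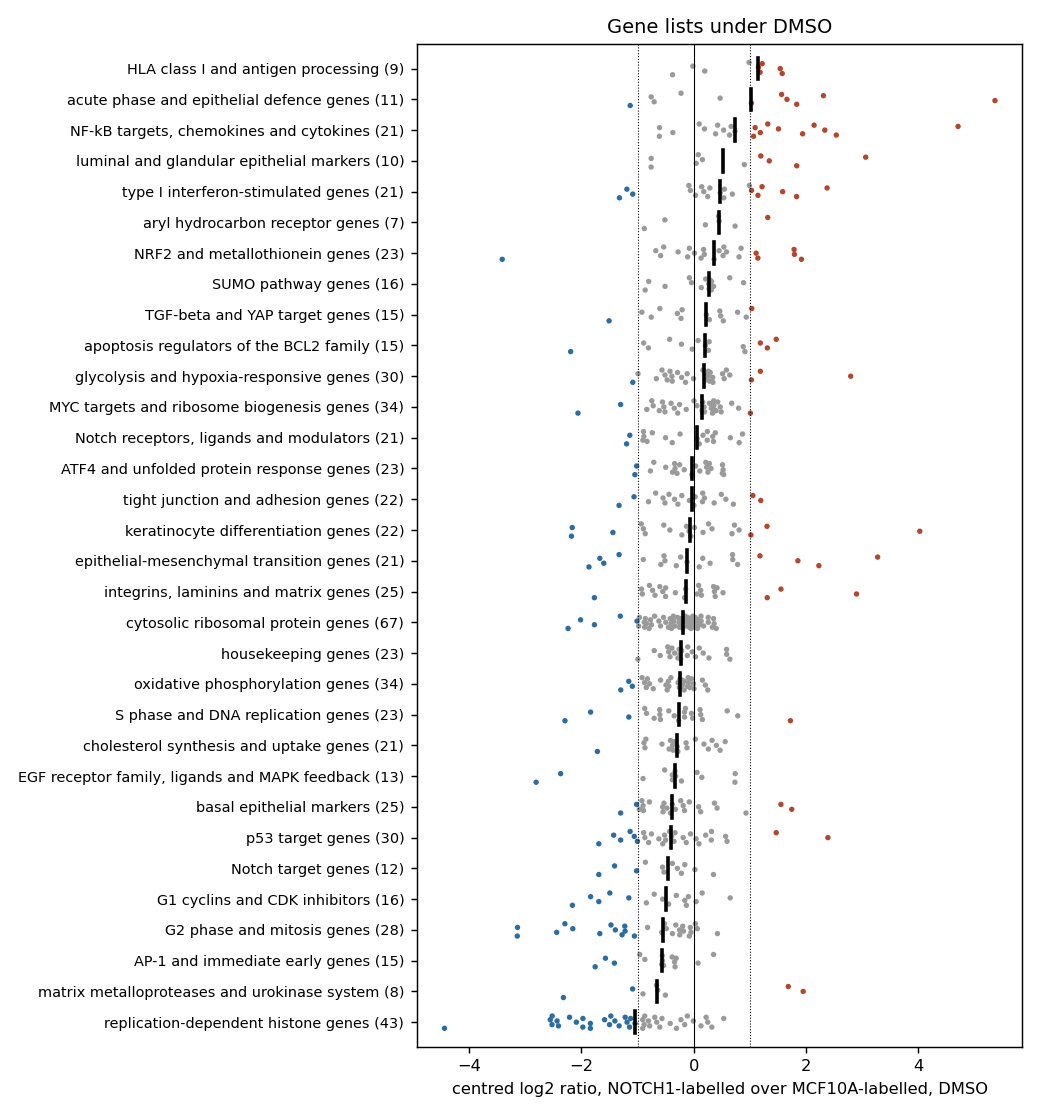
Centred log2 ratio under DMSO (x axis) of every measured member of each list with at least 7 such genes (y axis, number in brackets), red for the higher and blue for the lower set, with a black bar at the median. Class I genes have the highest median at 1.15 and replication-dependent histone genes the lowest at −1.04.

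Luminal and glandular epithelial markers had 4 of 10 in the higher set and 0 in the lower set, against 11.8% and 9.35% of all genes. Their median of 0.53 was 0.12 without genes that hold small RNAs. The simple-epithelium keratin genes KRT8, at 107.6 and 107.8 FPKM (0.04), and KRT7, at 1613 and 927 FPKM (−0.76), were outside both sets and were chosen after their values were seen. KRT15, a keratin that holds 1 small RNA (chromosome 17, 39669995 to 39678781), was at 1241 FPKM in MCF10A-labelled and 3067 FPKM in NOTCH1-labelled cells (1.35), EPCAM, the epithelial adhesion molecule, which holds 3 small RNAs, at 41.2 and 91.6 FPKM (1.19) and KRT23 at 0.701 and 5.69 FPKM (3.06). Basal markers had 2 of 25 in the higher set and 2 in the lower set, no more than the shares of all genes, with a median of −0.38. LAMB3, a laminin-332 chain, was at 24.97 and 71.2 FPKM (1.55), and CD44 at 439 and 211 FPKM (−1.02, and −0.65 against the median of its chromosome).

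Keratinocyte differentiation genes had 3 of 22 in the higher set and 3 in the lower set, against 11.8% and 9.35% of all genes. Their median was −0.07, and 0.19 when set against genes of like GC content. KRT16, a keratin of activated epidermis, was at 123 FPKM in MCF10A-labelled and 26.8 FPKM in NOTCH1-labelled cells (−2.16), and KRT10, of differentiated epidermis, at 35.03 and 7.53 FPKM (−2.18). With S100A7 this list therefore held large values of both signs. In the ginkgolic acid libraries its median was 2.06, with 12 of 19 in the higher set, against 8.99% of all genes there.

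Genes of epithelial-mesenchymal transition had 4 of 21 in the higher set and 4 in the lower set, against 11.8% and 9.35% of all genes. The list had no shared side. S100A4, a calcium-binding protein of motile cells, was at 13.7 FPKM in MCF10A-labelled and 62.3 FPKM in NOTCH1-labelled cells (2.23), and RAB25, an epithelial GTPase, at 0.635 and 5.98 FPKM (3.28). SPARC, a matrix protein, was at 9.05 and 2.41 FPKM (−1.87), and DCN, decorin, at 18.05 and 63.4 FPKM (1.86). DCN also serves as a fibroblast marker, while FAP and MFAP5 from that list were lower, at 39.7 and 15.4 FPKM and at 8.90 and 3.44 FPKM. The part of other cell types in these values was not tested.

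Proteases and matrix genes held values of both signs too. PLAU, the urokinase that activates plasminogen (chromosome 10, 75668935 to 75682535), was at 9.18 FPKM in MCF10A-labelled and 34.5 FPKM in NOTCH1-labelled cells (1.95), and PLAT, the tissue-type activator, at 5.45 and 17.0 FPKM (1.68). MMP7, matrilysin, was at 33.5 and 6.51 FPKM (−2.32) and the inhibitor gene TIMP1 at 30.7 and 14.0 FPKM (−1.09). Of 25 integrin, laminin and matrix genes, 3 were in the higher and 1 in the lower set, against 11.8% and 9.35% of all genes. The lower 1 was the integrin subunit gene ITGB5, at 35.2 and 10.1 FPKM (−1.77).

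Of 13 genes of the EGF receptor family, its ligands and MAPK feedback, 0 were in the higher set and 2 in the lower set, against 9.35% of all genes, the ligand gene EPGN at 312 FPKM in MCF10A-labelled and 58.6 FPKM in NOTCH1-labelled cells (−2.37) and FGFBP1, a carrier of fibroblast growth factors, at 13.6 and 1.89 FPKM (−2.81). The list's median of −0.33 was 0.14 with a minimum of 1 FPKM, so its sign depends on the minimum. AP-1 and immediate early genes had 0 of 15 in the higher set and 3 in the lower set, against the same 9.35%, with a median of −0.56. The 3 were JUNB (34.0 and 12.4 FPKM), JUND (25.8 and 8.44 FPKM) and ZFP36, which destabilises cytokine mRNAs (8.48 and 2.44 FPKM). All 3 lie on chromosome 19, and against the median of that chromosome their centred log2 ratios were −0.56, −0.72 and −0.91, inside 2-fold.

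The list of BCL2 family and other apoptosis regulators had 3 of 15 in the higher set and 1 in the lower set. Of all genes, 11.8% and 9.35% were in these sets. The list had a median of 0.21. PMAIP1, the death activator NOXA, was at 5.52 FPKM in MCF10A-labelled and 14.8 FPKM in NOTCH1-labelled cells (1.47). BCL2L1, which encodes the survival protein BCL-XL (chromosome 20, 30252255 to 30311792), was at 18.2 and 3.87 FPKM (−2.19), and BID, a death activator, at 20.1 and 48.4 FPKM (1.31). The other listed gene in the higher set was BIRC3, an inhibitor of apoptosis that is not of the BCL2 family (1.19). With ginkgolic acid BIRC3 had a ratio of −0.62. GDF15, a stress cytokine that holds 1 small RNA, was at 5.04 and 1.82 FPKM (−1.43).

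Protein-coding genes of chromosomes 7, 8, 11, 19 and 20 were lower as a whole, a set of 5 chromosomes chosen after the values were seen. Their medians were −0.44 (357 genes), −0.31 (304), −0.37 (459), −0.85 (424) and −0.65 (194). The medians of the 18 others lay between −0.12 and 0.26. Of the 1738 genes on the 5 chromosomes, 20.8% were in the lower and 3.91% in the higher set, and of 5969 elsewhere 5.24% and 8.29%, beside 8.77% and 7.3% of all protein-coding genes. With ginkgolic acid, in libraries that share no sample with DMSO, the same 5 had medians of −0.42, −0.34, −0.25, −0.33 and −0.38, and the 18 others lay between 0.01 and 0.21.

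The lower values ran along these chromosomes wherever enough genes were measured. In 10 Mb windows with at least 20 genes, all 34 windows on the 5 chromosomes had a median below 0 under DMSO, and all 34 with ginkgolic acid. Elsewhere 34 of 134 windows under DMSO and 14 of 134 with ginkgolic acid were below 0. Chromosome 5 differed along its length, with a median of 0.19 over 261 genes up to position 140000000 (hg19) and of −0.42 over 129 genes beyond it. With ginkgolic acid these were 0.12 and −0.30. This position was chosen after the values were seen. DNA was not measured. The DMSO and ginkgolic acid columns of a line come from 1 table normalized together, so both comparisons rest on the same pair of tables.

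**Figure D4:**
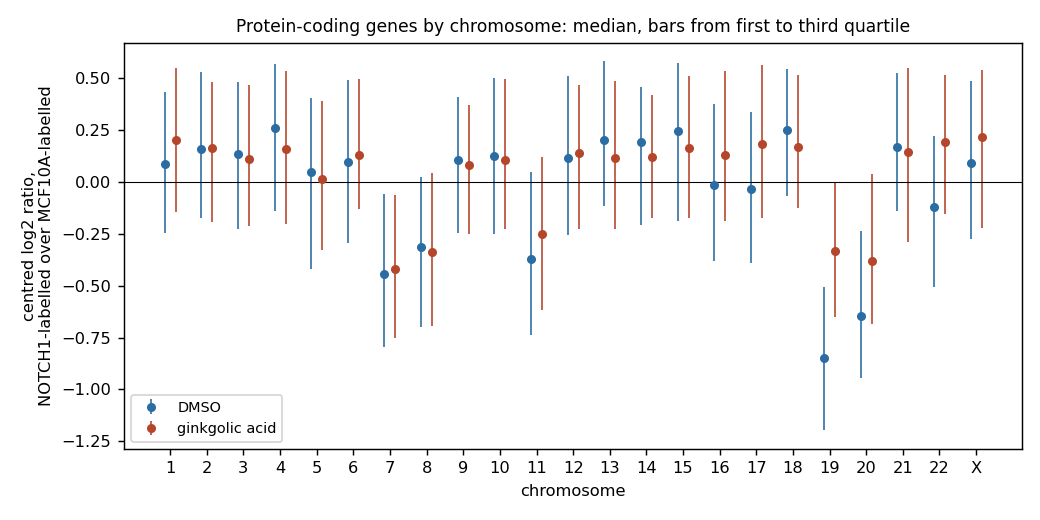
Median centred log2 ratio of protein-coding genes (y axis) on each chromosome (x axis), with bars from the first to the third quartile of genes, under DMSO (blue) and with ginkgolic acid (red). Chromosomes 7, 8, 11, 19 and 20 lie below 0 in both, from −0.31 to −0.85 under DMSO.

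GC content moved with the DMSO ratios. In 5 equal groups of protein-coding genes ordered by the GC content of their transcripts, with medians of 39.2%, 42.97%, 47.4%, 53.6% and 60.6% GC, the median ratio was 0.26, 0.14, 0.06, −0.14 and −0.50. The share in the lower set was 3.44% in the group poorest in GC and 22.2% in the richest. With ginkgolic acid the 5 medians lay between 0.02 and 0.07. The part of GC content in the DMSO ratios was not tested, but genes could be set against others of like GC content in 20 bins. On that scale chromosomes 7, 8, 11, 19 and 20 had medians of −0.44, −0.34, −0.22, −0.44 and −0.50, and the 18 others lay between −0.09 and 0.22. NOTCH1, at 62.9% GC, had −0.53 in place of −1.14, HES4 −0.70 in place of −1.41, RFNG −0.49 in place of −1.20 and CDKN1A −1.31 in place of −1.69.

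**Figure D5:**
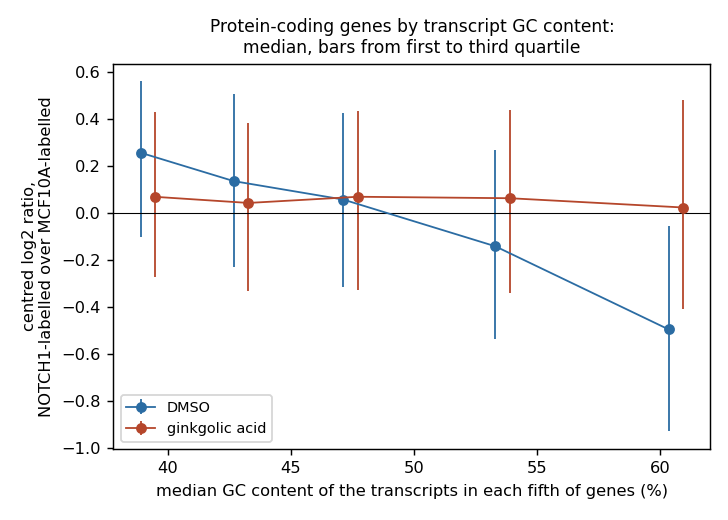
Median centred log2 ratio (y axis) of protein-coding genes in 5 equal groups by GC content of the transcript (x axis, median of each group in percent, points set slightly apart for clarity), with bars from the first to the third quartile of genes. Under DMSO (blue) the median goes from 0.26 to −0.50 with GC content, and with ginkgolic acid (red) it stays between 0.02 and 0.07.

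To see which differences between the lines were also present in other libraries, the same ratio was taken from the ginkgolic acid groups. Of 9633 genes with a ratio there, the higher set held 866 (8.99%) and the lower set 907 (9.42%). Among 7114 protein-coding genes measured in both comparisons, the higher set held 446 under DMSO and 465 with ginkgolic acid, and 96 were in both (21.5% and 20.6% of them). The lower sets held 548 and 369 genes, with 74 in both (13.5% and 20.1%). Of all 7114, 6.54% were in the higher and 5.19% in the lower set with ginkgolic acid. Of the 446, 65 (14.6%) were in the lower set there, and of the 548, 53 (9.67%) were in the higher set. Over all 8538 genes of any type measured in both, 126 of 842 higher genes (14.96%) and 109 of 671 lower genes (16.2%) kept their side, beside 6.65% and 7.95% of all 8538 that were in those sets with ginkgolic acid. Of the 842, 218 (25.9%) were in the lower set with ginkgolic acid, beside the same 7.95%.

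Genes beyond 2-fold on the same side in both comparisons, with at least 1 FPKM in all 4 groups and no small RNA, included LCN2, TNFAIP2 and BST2 and also LY6D, a surface marker of stratified epithelia, at 2.71 FPKM in MCF10A-labelled and 14.97 FPKM in NOTCH1-labelled DMSO cells and at 1.15 and 7.61 FPKM with ginkgolic acid. ATP1B1, a sodium pump subunit, was at 5.42 and 21.9 FPKM and then at 7.04 and 37.5 FPKM. Among genes lower in both, ARMCX3, a mitochondrial outer membrane protein, was at 12.6 and 1.72 FPKM and then at 20.2 and 1.36 FPKM. RRAGD, a GTPase of amino acid sensing, was at 6.70 and 1.01 FPKM and then at 8.38 and 1.29 FPKM, and FXYD5, a regulator of the sodium pump, at 63.01 and 14.3 FPKM and then at 68.9 and 28.6 FPKM. These 5 genes were picked by that rule, so the shared order of the lines was fixed in advance and is no separate result.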

How the data were processed

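Per the labels' protocols, an RNeasy kit gave the total RNA and ScriptSeq Complete Gold the libraries. The submitters' processing notes name Cuffdiff 2.1.1, Cufflinks 2.1.1, Bowtie2 2.1.0 and TopHat2 2.0.8b on GRCh37 (hg19). Not given in the sources used here are the settings, the annotation, whether counting used strand, and how a group's samples were merged. The authors deposited 1 table per line with 1 FPKM value per gene and group, per the file headers. Each table was normalized separately.

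The tables had 70227 rows for MCF10A (15977 without a name, 1575 naming several genes) and 59662 for the NOTCH1 line (5455 and 1570). Such rows, repeated symbols and other chromosomes were left out, leaving 44711 and 44742. Positions are the tables' loci, 1-based, which can span neighbouring genes. Ratios had no pseudocount. GENCODE release 29 gave gene types, held small RNAs and GC content by symbol, and RefSeq (GRCh38.p14) the promoters. The planned fit per sample could not be made, so a 2-fold size rule stands in its place. Depth is unknown, and no interval could be given.

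The genes, the 38 lists and the rules were chosen with earlier results of these data known. Genes named were the 12 highest and 12 lowest protein-coding ratios without small RNAs (at least 5 FPKM in 1 group and 1 in the other), the 4 or fewer members of each list furthest beyond 2-fold, up to 4 listed at 0 in a group per direction, and fixed Notch, cell cycle and SUMO genes. A few genes that these rules name are not reported here. Alternatives changed the minimum, centring, pseudocount, gene types, small RNA hosts and fold. Centring by GC content or chromosome and the restriction to equal loci were added after seeing the data. The computation was tested on simulated data. Python 3.11.15, numpy 2.4.6, pandas 2.3.3 and matplotlib 3.10.9 were used.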

Additional observations from a re-analysis of the deposited data

How the results depend on the processing

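No paired analysis was possible because each table gives 1 value per group and its columns carry no replicate, and for the same reason no replicate could be left out. The 1132 genes at least 2-fold higher became 4828 with a minimum of 1 FPKM, 8915 with none, 359 with 20 FPKM, 443 with 5 FPKM in both groups and 347 at 4-fold. Among protein-coding genes centred on their own median they became 568, where 563 were counted above with the median of all genes. When protein-coding genes were centred by GC content or chromosome, 564 and 529 were higher. The 899 lower genes became 1776, 2553, 385 and 478 under those minimums, 443 and 470 by GC content or chromosome, 154 at 4-fold, and 560 when centred on housekeeping genes. That centring adds 0.23 to every ratio, and the share of higher among genes beyond 2-fold was then 72.9% in place of 55.7% (73.1% at 1 FPKM, 77.7% without a minimum, 46.0% for protein-coding genes). Counting same signs only, 39.7% of higher and 62.0% of lower genes kept their side with ginkgolic acid, beside 51.4% and 48.6% of all genes measured in both that had those signs.

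Of medians at least 0.3 from 0, those that changed sign under a setting were those of acute phase genes (−0.46 with 5 FPKM in both groups), the EGF receptor list (0.14 with 1 FPKM, 0.11 without a minimum), and fibroblast markers (0.45 without a minimum, 0.24 by GC content). A further 10 lists with medians closer to 0 took the other sign under a setting, among them Notch receptors, ligands and modulators (0.06, and −0.24 with 1 FPKM), keratinocyte differentiation genes (−0.07, and 0.19 by GC content), transition genes (−0.12, and 0.15 by GC content) and glycolysis genes (0.18, and −0.04 by chromosome), so no direction is drawn from these. Lists with fewer than 3 measured genes were not recomputed. RPL7A, which holds small RNAs, had a ratio of 0 under quantile normalization because it is the top gene of both columns. Of 124 named genes beyond 2-fold, 112 stayed so with housekeeping centring, and of 122, 106 by GC content and 102 by chromosome. The cause of these changes was not tested. Low FPKM rest on few fragments, and the tables do not give how many.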

Other observations

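Genes of the NRF2 response and metallothioneins had 5 of 23 in the higher set and 1 in the lower set under DMSO. Of all genes, 11.8% and 9.35% were in these sets. The list had a median centred log2 ratio of 0.36. The aldo-keto reductase genes AKR1C1, AKR1C2 and AKR1C3, detoxifying enzymes of near-identical sequence, were at 5.17, 5.79 and 19.8 FPKM in MCF10A-labelled and at 19.01, 19.4 and 66.8 FPKM in NOTCH1-labelled cells. With ginkgolic acid they were at 7.60, 10.8 and 14.0 FPKM and at 53.1, 60.3 and 78.4 FPKM, so their order was the same in both treatments.

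Of 30 glycolysis and hypoxia genes, 3 were in the higher set and 1 in the lower set. For this and the following lists, the shares of all genes were 11.8% and 9.35%. The glucose transporter gene SLC2A3 was at 1.19 and 8.06 FPKM and the oxidoreductase gene ERO1L at 60.3 and 133 FPKM. Of 21 genes of cholesterol synthesis and uptake, 0 were in the higher set and 1 in the lower set, the reductase gene DHCR7 at 32.4 and 9.60 FPKM. All 16 measured SUMO pathway genes were less than 2-fold apart, with a median of 0.27 that was 0.05 against genes of like GC content. Of 34 oxidative phosphorylation genes, 3 were in the lower set and 0 in the higher set, with a median of −0.25. Among 67 cytosolic ribosomal protein genes 5 were in the lower set, among them RPL7A, RPL23A and RPL13A, which hold small RNAs.
Protein-coding genes listed at 0 in MCF10A-labelled DMSO cells included the kallikrein gene KLK6, at 9.29 FPKM in NOTCH1-labelled cells. Its values with ginkgolic acid were 1.23 and 2.28 FPKM.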
